A study of Mus musculus with 6 samples.

Results

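Notch signalling genes were examined in bulge SCs with and without ILK. The group held 10 of the 43274 genes in the count table, namely the receptors Notch1, Notch2 and Notch3, the ligands Jag1, Jag2 and Dll1, the target genes Hes1, Hey1 and Heyl, and Rbpj, the factor that carries the signal to DNA. The genes were chosen by name and found through their Ensembl identifiers. Bulge SCs had been sorted by FACS as CD34+ cells with high α6 integrin from epidermis of mice at postnatal day 21. The 3 control libraries (ILK +/-) came from mice with 1 floxed and 1 wild-type Ilk allele, and the 3 ILK-K5 libraries (ILK -/-) from mice with 2 floxed alleles. All of these mice carried Cre under the promoter of keratin 5, which is active in basal cells of the whole epidermis, so that Cre itself was shared by both genotypes and the deletion was not confined to the bulge. The labels number the libraries within a genotype but do not say whether a library was made from 1 mouse or from several, so p-values measure the spread between these libraries.

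Libraries held 8228019 to 11969072 reads on genes, and 1 read stood for 0.726 to 1.52 normalized counts. Ilk itself had 10.6, 16.7 and 38.5 normalized counts in controls 1 to 3 and 14.8, 30.9 and 29.2 in ILK-K5 replicates 1 to 3. As 89.7% of its exon bases also lie in exons of genes on the opposite strand, these values did not check the genotype. Of 8 bulge SC markers, Cd34 was called lower in ILK-K5 (log2 fold change -1.90, adjusted p = 0.0239 from limma), and the other 7, Itga6, Krt15, Lhx2, Sox9, Nfatc1, Lgr5 and Tcf7l1, were not called. Macrophage markers were scarce in the controls and abundant in ILK-K5, and C1qa, C1qb, Fcgr1 and Aif1 had at most 3 reads in each control library. The 12 genes summed to 98.8 to 139 normalized counts in control and 9926 to 13825 in ILK-K5 libraries, and all 11 that could be tested were called higher.

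Notch receptors sit in the cell membrane and are activated by ligands of the Jagged and Delta-like families on neighbouring cells. Cleavage by ADAM proteases and then by γ-secretase releases the intracellular domain, which enters the nucleus, binds Rbpj and switches on repressors of the Hes and Hey families. In skin the pathway is known for driving the step from basal to suprabasal keratinocytes and for roles in the hair follicle.

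Of the 3 target genes, Hey1 fell in ILK-K5 bulge SCs, whereas the receptors, the ligands, Rbpj and the other target genes did not pass the test. Hey1, a repressor of the Hey family, had a 7.43-fold lower mean in ILK-K5 libraries and was the single gene of the group called (limma, Benjamini-Hochberg adjusted p of at most 0.05). Its relative Heyl was low in every control library and higher in every ILK-K5 library, without reaching the threshold. Of the 10 genes, 1 was called lower, against 0.599% of the 16368 genes tested, and 0 were called higher, against 2.93%. At an unadjusted p under 0.05 there were 2 of the 10, Hey1 and Heyl, compared with 12.3% of all genes. Libraries of the genotypes did not overlap for 1 gene with ILK-K5 higher (Heyl) and 1 with ILK-K5 lower (Hey1), where 10.9% and 6.95% of all genes were separated in these ways. The median log2 fold change of the 10 genes was 0.31, and that of all genes tested was 0.0054.

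**Figure D1:**
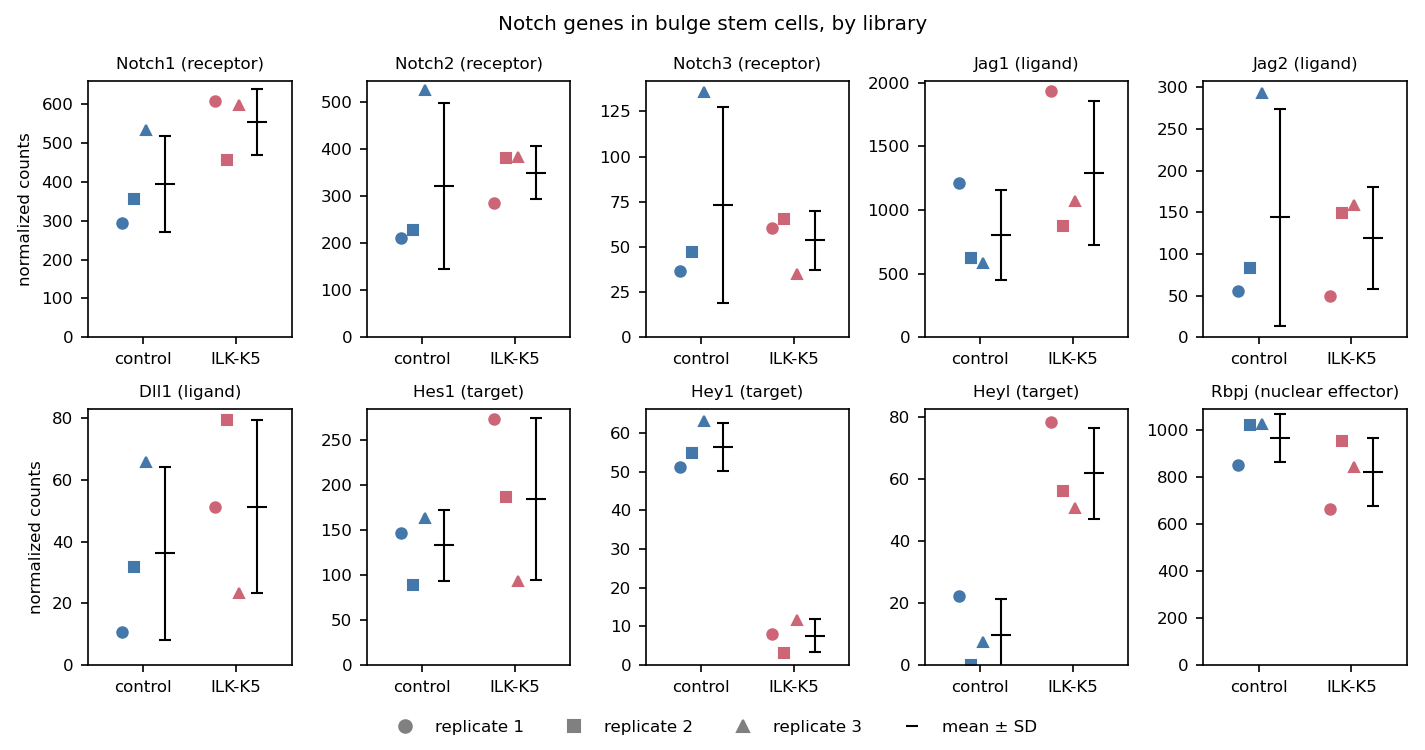
Normalized counts (vertical axes, each from 0) of the 10 Notch genes in the 3 control (blue) and 3 ILK-K5 (red) libraries, with symbols for replicate numbers and a bar for the mean ± SD. Hey1 lay between 51.1 and 63.1 in control and between 3.09 and 11.7 in ILK-K5 libraries, Heyl was separated in the other direction, and for the other 8 genes the genotypes overlapped.

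To compare genes with each other, the deposited FPKM values were used, which take gene length into account. In control library 1, 851 normalized counts of Rbpj (12750 exon bases) gave 15.0 FPKM, and 1215 counts of Jag1 (5827 exon bases) gave 21.4. The lengths behind these FPKM thus cannot both equal the exon bases, and the rank of Rbpj depends on the length used. In control bulge SCs the order was Rbpj (17.1 ± 1.79 FPKM, SD, n = 3), Jag1 (14.2 ± 6.25), Hes1 (6.68 ± 1.98), Jag2 (3.64 ± 3.29), Notch2 (3.13 ± 1.72), Notch1 (2.85 ± 0.893), Hey1 (1.77 ± 0.193), Notch3 (0.933 ± 0.694), Dll1 (0.880 ± 0.679) and Heyl (0.197 ± 0.227). Neighbours in this order overlapped in their libraries except at 2 steps, between Jag1 and Hes1 and between Notch1 and Hey1. In ILK-K5 bulge SCs Jag1 stood first with 22.8 ± 9.95 FPKM and Hey1 last with 0.238 ± 0.136. Here the libraries separated Hes1 from Notch1, Heyl from Notch3 and Notch3 from Hey1, and the remaining neighbours overlapped. Among all genes tested, mean FPKM was lower than that of Hey1 for 32.5% in control and for 2.96% in ILK-K5 libraries. For Heyl these shares were 3.04% and 22.8%.

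Notch1 is the receptor best known from suprabasal keratinocytes. The gene lies on the minus strand of chromosome 2 from 26457903 to 26516663 (GRCm38) and had 295, 357 and 534 normalized counts in controls 1 to 3 and 609, 456 and 599 in ILK-K5 replicates 1 to 3. Control library 3 lay within the ILK-K5 range, and the log2 fold change was 0.52 (standard error 0.30, 95% interval -0.16 to 1.20, adjusted p = 0.610). Notch2, on chromosome 3 from 98013527 to 98150361, had 210, 228 and 525 normalized counts in control and 285, 380 and 384 in ILK-K5 libraries. Its highest and lowest values were both in controls, and the interval of its log2 fold change was -0.62 to 1.10 around 0.24 (adjusted p = 0.904). Notch3, the receptor known from mural cells of vessels and also present in keratinocytes, lies on chromosome 17 from 32120820 to 32166852. Of the 3 receptors it had the fewest counts, with 36.7, 47.1 and 136 in control and 60.3, 65.6 and 35.1 in ILK-K5 libraries. Its log2 fold change of -0.25 (interval -1.51 to 1.01, adjusted p = 0.936) changed sign when control library 3 (0.31) or ILK-K5 library 3 (0.02) was left out.

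The proportions of the 3 receptors overlapped between the genotypes. Notch1 made up 36.0 to 47.7% of their summed FPKM in control and 41.9 to 55.3% in ILK-K5 libraries, Notch2 made up 41.2 to 47.9% and 35.0 to 47.4%, and Notch3 made up 10.1 to 16.2% and 5.25 to 10.7%. Of the exon bases of Notch1, 9.76% also lie in exons of genes on the opposite strand, and this share was 6.03% for Notch3. Notch2 shares 5.02% with a gene on its own strand.

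Jag1 was the most abundant ligand. It lies on chromosome 2 from 137081456 to 137116644 and had 1215, 620 and 581 normalized counts in control and 1935, 872 and 1071 in ILK-K5 libraries. Replicate 1 was the highest library of each genotype, and control library 1 exceeded ILK-K5 libraries 2 and 3, so that the genotypes overlapped. The log2 fold change was 0.68 (standard error 0.39, interval -0.20 to 1.56, adjusted p = 0.602). Jag2, on chromosome 12 from 112907819 to 112929776, had 55.0, 83.6 and 293 counts in control and 49.0, 150 and 159 in ILK-K5 libraries. For this ligand replicate 1 was the lowest library of each genotype. Its log2 fold change of -0.07 (interval -1.58 to 1.44, adjusted p = 0.987) changed sign when control library 3 (0.63) or ILK-K5 library 1 (0.47) was left out. Dll1, on chromosome 17 from 15367354 to 15376872, had the lowest mean of the 3 ligands in each genotype, with 10.6, 31.9 and 66.0 counts in control and 51.2, 79.4 and 23.4 in ILK-K5 libraries. A log2 fold change of 0.67 had an interval of -0.97 to 2.30 (adjusted p = 0.843), and it was -0.0060 without control library 1. Exons of another gene on the opposite strand cover 20.6% of the exon bases of Dll1.

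Jag1 held between 53.1 and 92.8% of the summed FPKM of the 3 ligands in control and between 72.9 and 93.2% in ILK-K5 libraries. The ratio of Jag1 to Jag2 in FPKM was 15.4, 5.16 and 1.38 in controls 1 to 3 and 27.5, 4.06 and 4.70 in ILK-K5 replicates 1 to 3. Replicate 1 had the highest ratio in each genotype. Replicate 1 also carries a different number in its column name than replicates 2 and 3 do, for both genotypes, and the meaning of that number is not given in the sources used here. Within replicates 2 and 3 the log2 fold change of Jag1 was 0.69 (adjusted p = 0.339), and with a term for this split its adjusted p was 0.0882.

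Control library 3 held the highest control value of 8 of the 10 genes, all but Jag1 and Heyl. Among controls its sum of the 8 bulge SC markers was also highest (109426, against at most 58396 in the others). Krt15 made up most of that sum (28999, 47764 and 97406 in controls 1 to 3). Itga6, Sox9 and Tcf7l1 were also highest in control library 3, whereas Cd34, Lhx2, Nfatc1 and Lgr5 were highest in control library 1. The sum of 6 basal keratinocyte markers was highest there too (107111, against at most 74408). Krt5 (25277, 29980 and 64812 in controls 1 to 3), Krt14 and Itga3 were highest in control library 3. Col17a1 and Itgb4 were highest in control library 1 and Trp63 in control library 2. The share of mitochondrial reads in control library 3 was the lowest of the controls (11.5%, against 23.6% and 27.6%). This library also held the most counts of 10 markers of differentiated keratinocytes, which summed to 4152, 11609 and 21963 in control libraries 1 to 3 and to 4905, 7895 and 6407 in the ILK-K5 libraries. The part of such cells in the values of Notch2, Notch3, Jag2 and Dll1 was not tested, nor was that of the other differences of this library. Without control library 3, 0 of the 10 genes were called, and the log2 fold changes were 0.76 for Notch1, 0.66 for Notch2 and 1.26 for Dll1.

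Rbpj had the smallest coefficient of variation of the 10 genes among the controls. The gene lies on chromosome 5 from 53466152 to 53657362 and had 851, 1025 and 1029 normalized counts in control and 666, 956 and 843 in ILK-K5 libraries, a coefficient of variation of 10.5% and 17.8%. The genotypes overlapped, and the log2 fold change was -0.25 (standard error 0.26, interval -0.82 to 0.33, adjusted p = 0.832). A copy of the gene, Rbpj-ps3, had 68.5, 113 and 130 counts in control and 64.9, 143 and 151 in ILK-K5 libraries. How reads shared by such copies were assigned is not given, and the level of Rbpj is uncertain to that extent.

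The promoters of 7 of the 10 genes had entries in the RefSeq promoter table (GRCm38.p6), and those of Hes1, Hey1 and Heyl were not used here. The RBPJ motif TGGGAA, searched on both strands from 250 bases before to 50 after the start, was found in the entry of 1 of the 7 genes, Rbpj, and in 25.6% of all 32851 entries. Of 40 other pathway genes with an entry, 15 held a match. Of all entries, 3.79% held it at least 2 times, among them those of Rbpj and of Hes5, a classical Notch target outside the 10 genes. Entries of Lfng, Hey2 and Kat2a did so too, and a second, overlapping entry of Rbpj held 1 match. Rbpj and Hes5 are shown up to the start, since Rbpj had the highest mean FPKM of the 10 genes in controls, while Hes5 was at the limit of detection. Both strands of the motif are in capitals. The Rbpj window is chr5:53590096-53590345 and the Hes5 window chr4:154960673-154960922, each on the plus strand, and the RefSeq start of Rbpj lies inside the longer gene given above.
Rbpj: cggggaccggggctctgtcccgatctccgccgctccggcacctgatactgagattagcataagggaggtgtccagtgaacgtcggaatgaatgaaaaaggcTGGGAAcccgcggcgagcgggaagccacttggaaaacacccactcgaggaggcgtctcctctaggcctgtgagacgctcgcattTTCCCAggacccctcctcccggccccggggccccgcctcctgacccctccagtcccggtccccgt
Hes5: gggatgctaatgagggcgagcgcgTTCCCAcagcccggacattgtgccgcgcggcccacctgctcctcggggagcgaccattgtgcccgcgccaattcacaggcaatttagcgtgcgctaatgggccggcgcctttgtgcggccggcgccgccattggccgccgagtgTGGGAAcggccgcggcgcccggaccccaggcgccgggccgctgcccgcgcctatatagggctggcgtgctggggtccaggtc
In Rbpj the motifs begin 149 and 65 bases before the start and in Hes5 226 and 82 bases before it. The motif CACGTG, an E-box that Hey proteins can bind, was found in 0 of the 7 genes and in 7.15% of all entries, and CACNAG, the N-box of Hes proteins, in Notch1, Notch2, Notch3 and Dll1 and in 42.5% of all entries. Matches of different motifs may share bases, and a match is a description of letters, not of binding.

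Hes1, a repressor that Notch induces directly in many tissues, was the most abundant of the 3 target genes. On chromosome 16 from 30064384 to 30067796, it had 147, 88.2 and 163 normalized counts in control and 273, 187 and 93.5 in ILK-K5 libraries. ILK-K5 libraries 1 and 2 lay above all controls and ILK-K5 library 3 lay near the lowest control. The log2 fold change was 0.39 (standard error 0.45, interval -0.63 to 1.40, adjusted p = 0.858).

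Hey1 lies on the minus strand of chromosome 3 from 8663359 to 8667256, and its exons overlap those of no other gene. It had 51.1, 54.7 and 63.1 normalized counts in controls 1 to 3, a coefficient of variation of 10.9%, and 7.97, 3.09 and 11.7 in ILK-K5 replicates 1 to 3. The highest ILK-K5 value was far below the lowest control. The mean fell from 56.3 ± 6.15 (SD, n = 3) to 7.58 ± 4.32 (SD, n = 3), 7.43-fold in the ratio of means, and the limma estimate was -2.88 on the scale of log2 of the count plus 1 (standard error 0.61, interval -4.25 to -1.51, adjusted p = 0.0336). The ILK-K5 values rest on 7, 4 and 12 reads, and the mean of that genotype alone is below the limit of 10 counts that was set on the mean of all libraries. When any 1 of the 6 libraries was left out Hey1 was no longer called, and its adjusted p lay between 0.0558 and 0.132 and its log2 fold change between -3.24 and -2.42. Within replicates 2 and 3 the log2 fold change was -3.05 (adjusted p = 0.0886). It was called by DESeq2, run on recovered reads, with an adjusted p of 2.27e-04, where 1.71% of all genes were called lower. With the term for the split by column names its adjusted p was 0.0134, where 1.75% of all genes were called lower.

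Heyl, the third member of the Hey family, lies on chromosome 4 from 123233556 to 123249875 and shares no exon bases with other genes. Its normalized counts were 22.2, 0 and 7.26 in control and 78.6, 56.3 and 50.7 in ILK-K5 libraries. Every ILK-K5 library had more than 2 times the counts of the highest control. The means were 9.82 ± 11.3 (SD, n = 3) and 61.8 ± 14.8 (SD, n = 3), 6.30-fold higher in ILK-K5 as a ratio of means, and the control mean alone is below the limit of 10 counts. The log2 fold change was 3.42 (standard error 1.04, interval 1.09 to 5.76, adjusted p = 0.145), so that Heyl was not called. DESeq2 called it higher (log2 fold change 2.58, adjusted p = 0.0396), where 4.72% of all genes were called higher, and limma did so without control library 1 (4.43, adjusted p = 0.0305) and with a term for the split by column names (adjusted p = 0.0371), where 5.17% of all genes were called higher. Within replicates 2 and 3 the log2 fold change was 4.24 (adjusted p = 0.102). The 0 in control library 2 allows up to 4.56 normalized counts. With 3 libraries per genotype the smallest two-sided p of an exact permutation test is 0.1, which Hey1 and Heyl both reached.

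**Figure D2:**
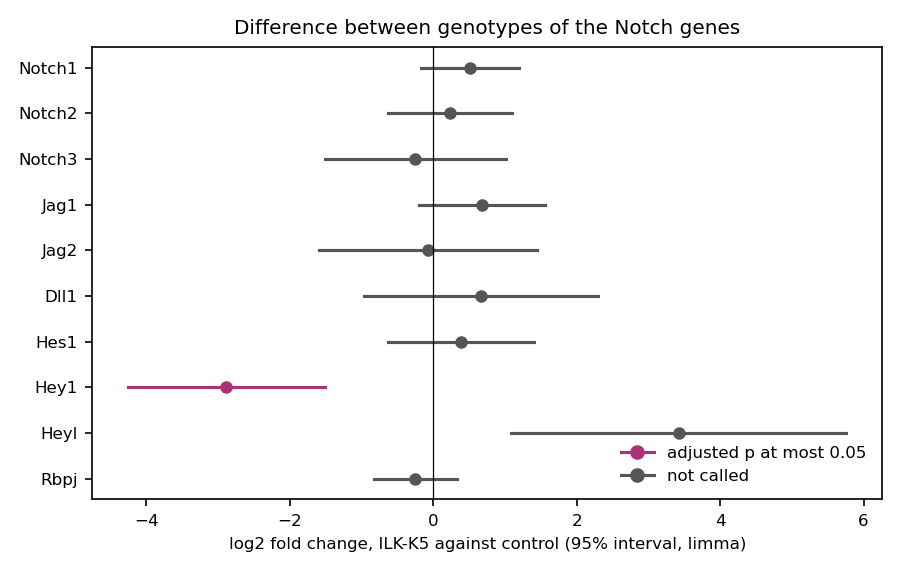
Log2 fold change in ILK-K5 against control bulge SCs (horizontal axis; points) with 95% intervals from limma (lines) for the 10 Notch genes, with the called gene in purple. The interval of Hey1 runs from -4.25 to -1.51 and that of Heyl from 1.09 to 5.76, and the other 8 intervals include 0.

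The 2 Hey genes thus exchanged rank. Of their summed FPKM, Hey1 held 78.3 to 100% in the control and 7.90 to 26.5% in the ILK-K5 libraries, and Heyl the rest. The sum itself was 1.72 to 2.13 FPKM in control and 1.23 to 1.83 in ILK-K5 libraries. Of all 3 targets, Hey1 held 17.0 to 27.9% in control and 0.912 to 6.03% in ILK-K5, and Heyl 0 to 4.72% and 10.1 to 16.7%. Hes1 held the largest share in each of the 6 libraries, from 72.1 to 88.5%. These shares describe the same values as the fold changes and were not tested.

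**Figure D3:**
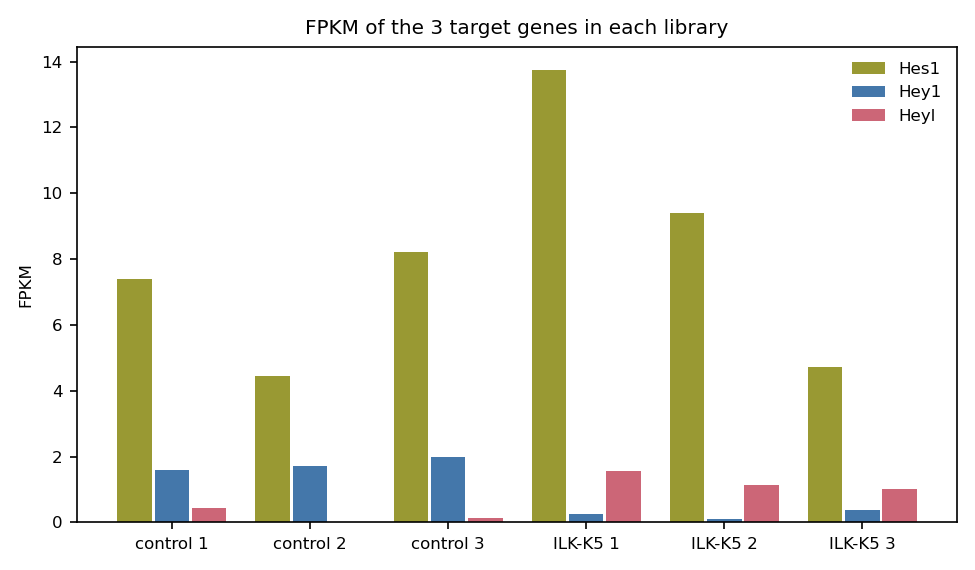
FPKM (vertical axis, from 0) of Hes1, Hey1 and Heyl in each of the 3 control and 3 ILK-K5 libraries. Hey1 is taller than Heyl in all 3 control libraries and shorter in all 3 ILK-K5 libraries, and Hes1 is the tallest in every library.

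In these sorted populations, fewer cells of a type and less RNA per cell cannot be told apart, and both Hey genes are known from cell types other than keratinocytes. Heyl is a known gene of mural cells. Of 8 mural markers, Pdgfrb had at most 3 reads in every control library and 19.4, 27.8 and 12.7 normalized counts in ILK-K5 replicates 1 to 3 (adjusted p = 0.0519), and Acta2 had 4.56 to 37.6 in control and 71.7 to 119 in ILK-K5 libraries (adjusted p = 0.129). Rgs5, a defining pericyte gene, had 4.35 to 9.65 in control and 4.87 to 8.48 in ILK-K5 libraries, and Des had at most 3 reads in every library. The whole list summed to 444 to 810 in control and 509 to 811 in ILK-K5 libraries, with 0 of 4 tested genes called. Cspg4 made up most of that sum (418 to 757 in control and 384 to 680 in ILK-K5 libraries). Of the tested genes, Pdgfrb and Acta2 had log2 fold changes of 3.89 and 2.43, and Cspg4 and Abcc9 of -0.079 and -0.75. Heyl moved with macrophage markers and with the sum of the 6 fibroblast markers, which was 703 to 779 in control and 1532 to 2493 in ILK-K5 libraries. Of 4 tested fibroblast genes 1 was called higher, Col3a1. Col1a1, Col1a2 and Lum were also higher in every ILK-K5 library than in any control. Pdgfra (1.52 to 12.5 in control and 2.31 to 12.5 in ILK-K5 libraries) and Dcn (26.1 to 125 and 35.3 to 130) overlapped. The 5 markers of Langerhans and dendritic cells summed to 49.2 to 681 and 16606 to 31359, with 3 called higher. The 7 T cell markers summed to 118 to 173 and 302 to 350, with 2 of 5 tested called higher, Cd2 and Cd4. By limma Cd3e (log2 fold change 2.48, adjusted p = 0.255), Cd3g (2.31, adjusted p = 0.102) and Cd3d (-0.47, adjusted p = 0.855) were not called. Called lower like Hey1 were Cd34, the differentiated keratinocyte gene Lor (123.2 to 142 in control and 2.28 to 24.7 in ILK-K5 libraries, adjusted p = 0.0182) and Mitf (596 to 1136 and 192 to 258, adjusted p = 0.0118). Lor was the single called gene of the 9 tested in its list. Mitf made up most of the sum of 7 melanocyte markers, 680 to 1311 in control and 273 to 483 in ILK-K5 libraries, but the other tested genes of that list were not called and its median log2 fold change was 0.20, with 0.60 for Dct, 3.29 for Tyrp1, 0.20 for Pmel and -0.29 for Tyr. Hey1 is also expressed in endothelial cells, whose 10 markers summed to 152 to 275 in control and 145 to 159 in ILK-K5 libraries. Of the 3 tested, none was called. Pecam1 had 23.2 to 76.2 counts in control and 49.4 to 78.6 in ILK-K5 libraries (log2 fold change 0.68), Vwf had 42.6 to 88.8 and 46.7 to 57.8 (-0.21), and Tek had 22.5 to 54.0 and 5.69 to 11.6 (-2.02, adjusted p = 0.144), while Cldn5 had at most 3 reads in every library. The 3 dermal papilla markers summed to 22.2 to 63.9 in control and 38.7 to 149 in ILK-K5 libraries, with Sox2 at 0 reads in all of them. The part of such cells in the values of Hey1 and Heyl was not tested.

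Beyond the 10 genes, 49 others of the pathway were listed by role, of which 39 had enough counts for the test. Of these, 1 was called lower, Dlk1, and 0 were called higher, where 0.599% and 2.93% of all genes were. Their median log2 fold change was 0.11, with 23 values above 0 and 16 below. Libraries did not overlap for 6 genes with ILK-K5 higher (Furin, Adam10, Aph1a, Fbxw7, Maml2 and Ep300) and for 2 with ILK-K5 lower (Dlk1 and Rbpjl) of the 39, beside 10.9% and 6.95% of all genes. The genes named below other than Dlk1, Furin, Aph1a and those with too few counts were picked with their values in view, as examples of a role.

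Among ligands and receptors, the non-canonical ligand Dlk1, an imprinted gene, had 128, 57.8 and 67.5 normalized counts in control and 9.11, 1.54 and 0 in ILK-K5 libraries (log2 fold change -4.77, standard error 0.89, adjusted p = 0.0190). The ILK-K5 values of Dlk1 rest on 8, 2 and 0 reads, and the mean of that genotype alone is below the limit of 10 counts. Its log2 fold change was -6.11 with a pseudocount of 0.1 and -3.45 with a pseudocount of 5. The reads of Dlk1 and of the unnamed gene ENSMUSG00000098411 were nearly the same in every library, so the pair gives a single measurement. Leaving out replicate 2 of either genotype ended the call (adjusted p = 0.0847 for control and 0.0700 for ILK-K5). The endothelial receptor Notch4 had 1, 2 and 6 reads in control and 8, 6 and 15 in ILK-K5 libraries. Dll4, an endothelial ligand, had at most 2 reads in any library and Dll3 at most 5, and Dner and Neurl1a were also below the limit of 10 counts. Mfng, an enzyme that adds sugars to receptors, had 4, 4 and 1 reads in control and 7, 8 and 11 in ILK-K5 libraries. For both Notch4 and Mfng the genotypes did not overlap, and with no filter on low counts neither was called by limma (Notch4 at 1.46 with an adjusted p of 0.794, Mfng at 1.22 with an adjusted p of 0.837, both log2).

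Of the 10 genes of receptor cleavage, all were tested and 0 were called, and the median of their log2 fold changes was 0.40. Furin, the protease that matures the receptor in the Golgi, had 91.7, 85.2 and 218 normalized counts in control and 237, 493 and 412 in ILK-K5 libraries. Its lowest ILK-K5 value was close to control library 3, and the log2 fold change was 1.597 (standard error 0.44, interval 0.60 to 2.60, adjusted p = 0.104). Without control library 3 it was 2.03 and was called (adjusted p = 0.0261), and it was also called by DESeq2 (adjusted p = 0.0353) and with the term for the split by column names (adjusted p = 0.0223). Aph1a, a subunit of γ-secretase, had 62.3 to 136 normalized counts in control and 141 to 221 in ILK-K5 libraries (log2 fold change 0.93, adjusted p = 0.349), and 12.9% of its exon bases lie in exons of another gene. Adam10, the main protease of the ligand-dependent cut, had 337 to 432 counts in control and 464 to 551 in ILK-K5 libraries (log2 fold change 0.44, adjusted p = 0.601).

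Enzymes that add sugars to receptors, of which 4 were tested and 0 called, had log2 fold changes with a median of 0.045. For Lfng, which tunes the response to Jagged ligands, the value was -0.03. Among 10 tested genes of endocytosis and turnover 0 were called, among them Mib1, the ubiquitin ligase that ligands need to signal, with -0.02, and Numb, an inhibitor of the receptors, with -0.48 (adjusted p = 0.670). Among 12 nuclear co-factors 0 were called. Maml2, a co-activator of the Notch complex, had 321 to 368 counts in control and 459 to 536 in ILK-K5 libraries (log2 fold change 0.54, adjusted p = 0.427), and Rbpjl, a relative of Rbpj, had 27.4 to 31.2 and 6.17 to 19.4 (log2 fold change -1.32, adjusted p = 0.424).

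Target genes outside the 10 were scarcely measured. Hes5 had 0, 0 and 1 reads in control and 2, 0 and 0 in ILK-K5 libraries. Hey2, the remaining Hey gene, had 7 reads in control library 1 and 0 in each of the other 5 libraries, and Dtx1 had 0 in all 6. Nrarp, a feedback inhibitor, had 3 to 17 reads per library, with 79.4% of its exon bases shared with a gene on the opposite strand. Only Hes7 could be tested, with 53.7 to 212 normalized counts in control and 54.0 to 158 in ILK-K5 libraries (log2 fold change -0.50, adjusted p = 0.863).

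**Figure D4:**
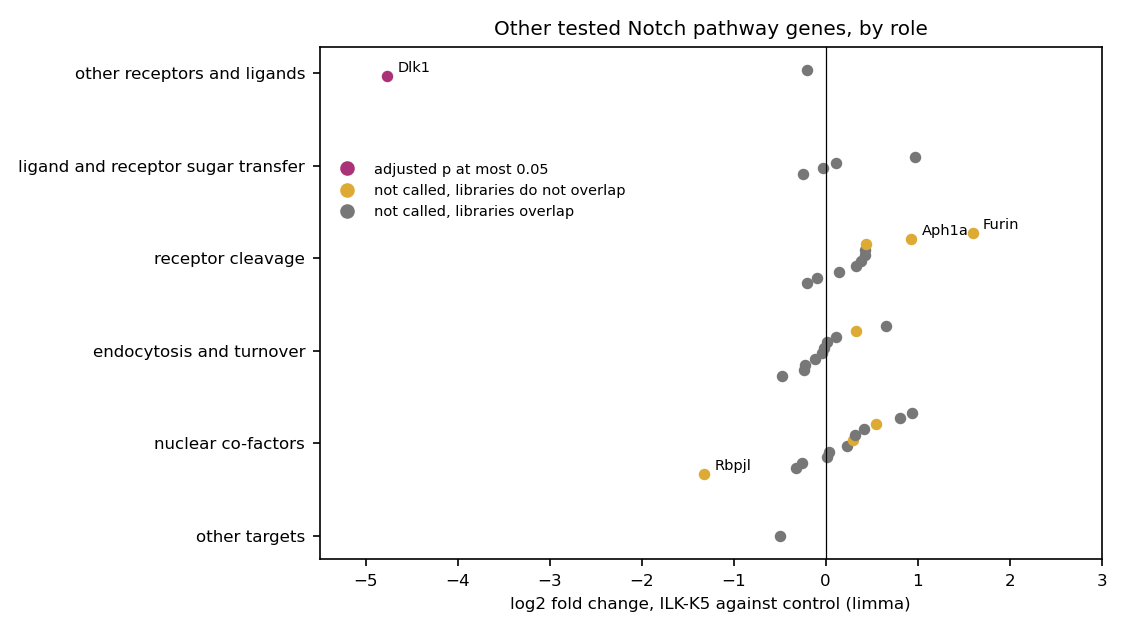
Log2 fold change in ILK-K5 against control bulge SCs (horizontal axis, limma) of the 39 other tested Notch pathway genes, in rows by role. Dlk1 at -4.77 is the single called gene (purple), genes whose libraries did not overlap are in yellow, among them Furin at 1.597, and the rest are in grey.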

How the data were processed

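Bulge SCs were profiled by RNA-seq from amplified cDNA. The authors aligned the reads to GRCm38 (TopHat2 2.0.14 and Bowtie2 2.2.4 per the submitters' processing notes) after removing adapters and reads on ribosomal RNA, and normalized counts per gene with DESeq2 1.6.3. The counting program and its strand setting are not given in the sources used here. The deposited signal is the read count divided by 1 size factor per library. All values (100%) were whole multiples of 1 step within a tolerance of 0.05, and reads were recovered from them. The FPKM deposited by the authors equal these values times a constant per gene. Tables of the authors' own comparison (means, fold changes and p-values) were not used.

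Genotypes were compared with limma 3.58.1 (R 4.3.3; lmFit, eBayes with trend, two-sided) on log2 of the normalized count plus 1, keeping 16368 genes whose mean over all 6 libraries reached 10, with Benjamini-Hochberg adjustment and calls at 0.05. No replicate term was included. The procedure was tested on simulated data. With limma, 3% of simulated 2-fold, 32.8% of 4-fold and 74.2% of 8-fold changes were called, with 3 false calls. With DESeq2 these shares were 17.9%, 77.6% and 90.9%, with 43 false calls. A gene that was not called may thus still differ between the genotypes. edgeR 4.0.16 and DESeq2 1.42.0 were run on recovered reads as alternatives. Symbols, coordinates and exon overlaps came from GENCODE M21 (GRCm38), and promoters from RefSeq. Symbols matched 97.3% of genes. The 10 genes and all lists were chosen with earlier results of these data known. By rule the text names Ilk, the 10 genes, other pathway genes that were called, or separated between genotypes with an unadjusted p under 0.05, or too low to test, and defining markers of other cells. Other pathway genes named as examples of a role lie outside this rule.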

Additional observations from a re-analysis of the deposited data

How the results depend on the processing

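Notch1, Notch2, Notch3, Jag1, Jag2, Hes1 and Rbpj kept their direction in the 12 alternatives with all libraries or with replicates 2 and 3, and none of them was called in any. Hey1 was lower and Heyl higher in every alternative that tested them. Hey1 was not called with a pseudocount of 0.1 (-3.07, adjusted p = 0.0508) or with replicates 2 and 3 only (-3.05, adjusted p = 0.0886), and neither gene was tested at a mean of at least 50 counts. Heyl was called with DESeq2 (2.58) and with a term for the set of column names (3.42, adjusted p = 0.0371). Dll1 was -0.085 with replicates 2 and 3 only. The number of the 10 genes called higher was therefore 1 with DESeq2 and with the term for the column names, and the number called lower was 0 with a pseudocount of 0.1, a mean of at least 50 counts or replicates 2 and 3 only. Of the other pathway genes, 1 (Furin) was called higher with DESeq2 and with the column term, and 0 were called lower with a pseudocount of 0.1 or a mean of at least 50 counts.

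With 1 library left out, log2 fold changes lay between -3.24 and -2.42 for Hey1, 2.16 and 4.43 for Heyl, -0.62 and 0.31 for Notch3, -0.57 and 0.63 for Jag2, and -0.0060 and 1.26 for Dll1. Each of the 4 counts lay between 0 and 1, except that of the 10 genes called lower, which was 0 throughout. The causes were not tested.

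Whether the replicate numbers pair the libraries could not be settled, since the deviations of 3 libraries per genotype depend on each other. Deviations of same-numbered libraries correlated with r = 0.53, 0.020 and 0.31 over 16368 genes. Control library 3 correlated best with ILK-K5 library 2 (r = 0.50). Control library 1 had r = -0.45 and -0.32 with ILK-K5 libraries 2 and 3. With the replicate block, 1 of the 10 genes was called higher (Heyl, 3.42, adjusted p = 0.0223) and 1 lower (Hey1, adjusted p = 0.0116), and 1 other pathway gene was called higher (Furin, 1.597, adjusted p = 0.0147). Under this block 848 of all 16368 genes were called higher and 269 lower, and under the column term 846 and 286, against 479 and 98 without either.

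Below about 10 normalized counts a value rests on few reads, which limits Hey1 and Dlk1 in ILK-K5 and Heyl in control libraries. Intervals for counts of 0 cover counting error only.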
